A study of Mus musculus with 12 samples.

Results

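The genes described here are 10 immediate early transcription factor genes measured in dividing mouse B cells: Fos and Fosb, Jun, Junb and Jund, Egr1, Egr2 and Egr3, Nr4a1 and Ier2. They were chosen by symbol, all 10 were present among the 21761 genes of the deposited tables, and all 10 passed the filter on low counts that 12026 genes passed. Splenic B cells (B220+ CD43-) of naive C57/BL6J donors were labelled with CFSE or CTV, dyes that are diluted at each division, and transferred into uMT mice, hosts that lack B cells of their own. The hosts were given LPS, a bacterial ligand that drives B cells to divide and to become antibody-secreting cells, and the transferred cells were sorted 3 days later. Cells at 0, 1, 3 and 5 divisions are called Div0, Div1, Div3 and Div5. Cells past 8 or more divisions were divided by CD138, a surface marker of plasma cells, into CD138-negative (Div8neg) and CD138-positive (Div8pos) cells. All groups had seen the same LPS challenge, so Div0 cells are undivided cells of challenged hosts and not unstimulated cells. Each group had 2 libraries of 40000 sorted cells, 1 from each of 2 hosts numbered 196 and 197. The labels give female mice, an age of 8 weeks and the strain B6.SJL-Ptprca Pepcb/BoyJ without saying whether donor or host is meant. All p-values below measure only the spread between these 2 hosts.

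Immediate early genes are switched on within minutes of a signal at the cell surface, without new protein synthesis, and many are just as quickly switched off again. FOS proteins pair with JUN proteins to form AP-1, a factor that binds enhancers and promoters of activation genes. EGR proteins are zinc finger factors and NR4A1 is an orphan nuclear receptor, and in B cells both families respond to antigen receptor signalling. IER2 is a small nuclear protein encoded by another immediate early gene. As background, stress and handling of cells can also induce these genes.

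Promoter sequences are shown for genes that later moved in opposite directions, since factors that induce immediate early genes bind close to their start sites. RefSeq promoters of GRCm38.p6, from 250 bases before to 50 bases after an annotated start, were matched for 7 of the 10 genes (11 promoters). Egr1, Egr3 and Ier2 had no entry. The cyclic AMP response element core TGACG, searched on both strands, was found in 5 of the 7 matched genes and in 20.8% of all 32851 promoters. A gene counts here if any of its promoters has the motif, whereas the share counts single promoters, so the 2 are not on the same footing. The variant TGACATCA, searched on both strands and without that core, was found in Jun and in 3.62% of all promoters. Within these windows the CArG box, the motif of serum response factor, was found on Egr2 promoters and in 1.63% of all promoters. Sequence further from the starts was not searched for any of the motifs. The AP-1 motif TGAGTCA (5.2% of all promoters) and the EGR motif GCGTGGGCG (0.612%), each on both strands, had no match in these windows. The promoters of 3 genes that were highest in Div8pos (Fos at chr12:85473640-85473939 on the plus strand, Fosb at chr7:19309996-19310295 on the minus strand, Jun at chr4:95052173-95052472 on the minus strand) and of Nr4a1, which was lowest there (chr15:101266596-101266895, plus strand), are printed 5′ to 3′ to set them side by side. Capitals mark TGACG or TGACATCA on either strand, so that a match on the other strand reads CGTCA.
Fos: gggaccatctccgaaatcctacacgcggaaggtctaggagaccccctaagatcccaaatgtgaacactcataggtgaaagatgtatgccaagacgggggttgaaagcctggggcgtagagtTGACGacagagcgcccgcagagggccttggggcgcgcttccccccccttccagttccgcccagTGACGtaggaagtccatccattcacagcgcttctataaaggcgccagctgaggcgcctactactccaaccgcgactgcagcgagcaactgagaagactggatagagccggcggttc
Fosb: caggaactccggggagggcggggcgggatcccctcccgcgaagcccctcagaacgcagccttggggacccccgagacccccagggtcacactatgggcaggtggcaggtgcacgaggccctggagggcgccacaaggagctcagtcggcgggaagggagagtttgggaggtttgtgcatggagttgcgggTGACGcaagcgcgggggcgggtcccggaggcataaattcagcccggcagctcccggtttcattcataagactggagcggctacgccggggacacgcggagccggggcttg
Jun: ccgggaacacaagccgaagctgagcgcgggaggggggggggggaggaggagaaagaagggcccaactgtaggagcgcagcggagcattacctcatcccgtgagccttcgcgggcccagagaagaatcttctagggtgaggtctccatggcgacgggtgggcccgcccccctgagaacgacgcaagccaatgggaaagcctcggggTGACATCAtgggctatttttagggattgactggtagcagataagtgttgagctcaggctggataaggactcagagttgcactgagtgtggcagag
Nr4a1: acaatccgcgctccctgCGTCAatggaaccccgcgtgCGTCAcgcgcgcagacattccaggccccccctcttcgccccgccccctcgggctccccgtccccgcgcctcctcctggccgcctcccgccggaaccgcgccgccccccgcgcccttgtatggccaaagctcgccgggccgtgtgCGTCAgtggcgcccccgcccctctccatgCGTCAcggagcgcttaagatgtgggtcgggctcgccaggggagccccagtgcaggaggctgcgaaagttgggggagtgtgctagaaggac
Fos carried the core at 2 places, the first at offset -129 from its annotated start. Fosb carried it at offset -60, Jun carried TGACATCA at offset -45, and Nr4a1 carried the core at 4 places, all on the other strand. The core was also found in Junb and in some of the Egr2 promoters. It was thus present in genes that were higher (Fos, Fosb) and in genes that were lower (Nr4a1, Junb, Egr2) in CD138-positive cells, relative to all genes.

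The libraries held 11541406 to 14961666 counts over named genes. Deposited mRNAs per cell, which rest on ERCC spike-in RNA added to the sorted cells before extraction, summed to 27360 (host 196) and 33510 (host 197) in Div0, 96790 and 103500 in Div8neg, and 173800 and 151800 in Div8pos. A gene can therefore rise per cell while its share of the library falls, and each gene is given on both scales: CPM (counts scaled to the same library total, relative to all genes) and mRNAs per cell, which are also per transcript length. Markers of the labelled cell types were present. The 7 B cell markers summed to 8810 and 8840 CPM in Div0, 6390 and 6260 in Div8neg and 961 and 942 in Div8pos, and the 5 plasma cell markers to 416 and 452, 652 and 786, and 4800 and 4960 in the same groups. The T cell genes Cd3d, Cd3e and Cd3g stayed at or under 0.546 CPM in every library. The other T cell markers found reached at most 1.13 CPM (Cd4), 0.606 (Cd8a) and 4.9 (Cd5) in any library. In these bulk samples, more RNA of a gene per cell and more cells that express it cannot be told apart.

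**Figure D1:**
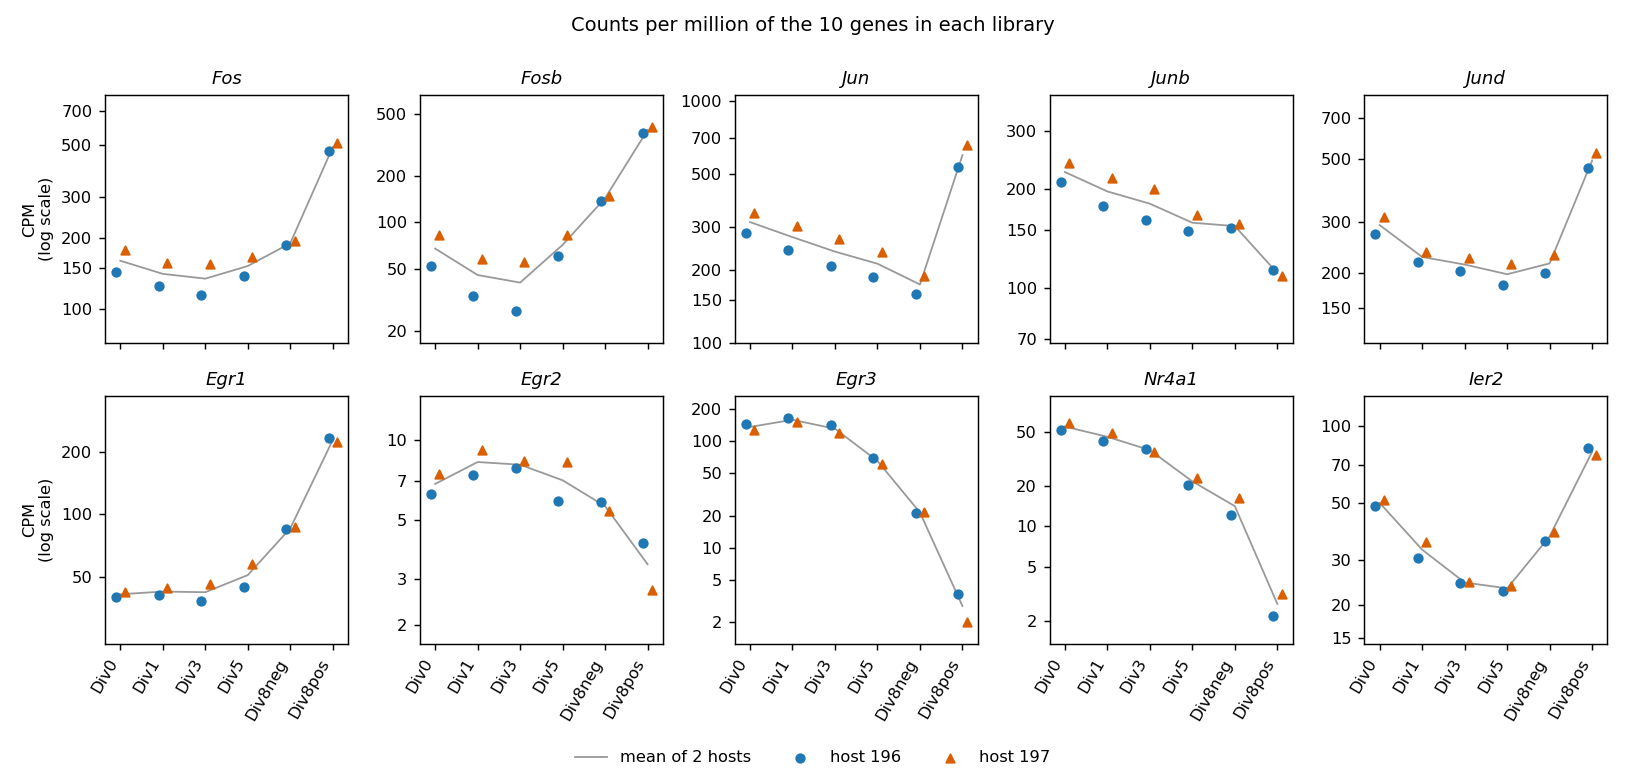
CPM (log scale, scaled by TMM factors) of each gene in the 12 libraries, by group from 0 divisions to CD138-positive cells. Circles are host 196, triangles host 197 and lines join the means of the 2 hosts. Fos, Fosb, Jun, Jund, Egr1 and Ier2 peak in Div8pos, whereas Junb, Egr2, Egr3 and Nr4a1 are lowest there.

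Fos and Fosb encode the partners of JUN proteins in AP-1. Fos was at 144 and 178 CPM (hosts 196 and 197) in Div0, 126 and 157 in Div1, 115 and 155 in Div3, 138 and 167 in Div5, 187 and 195 in Div8neg, and 470.2 and 508 in Div8pos. Both Div8pos libraries lay far above the other 10, and the ranges of Div0 to Div5 overlapped. Per cell, Fos rose from 5.07 and 7.46 mRNAs in Div0 to 22.1 and 25.1 in Div8neg and 89.9 and 86.4 in Div8pos. Fosb was at 52.7 and 83.2 CPM in Div0 and lowest in Div3, at 26.9 and 55.3. It then stood at 60.5 and 83.2 in Div5, 138 and 149 in Div8neg, and 376 and 409 in Div8pos. The 2 latest groups lay above all other libraries and did not overlap each other. Per cell, Fosb went from 1.03 and 1.94 mRNAs in Div0 to 39.8 and 38.5 in Div8pos, which is 38.7-fold in host 196 and 19.9-fold in host 197.

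The JUN genes split. Jun, the main AP-1 activator, had a lower relative level in each later group up to Div8neg, from 286 and 346 CPM in Div0 through 242 and 305 in Div1, 208 and 269 in Div3 and 187 and 238 in Div5 to 160 and 189 in Div8neg, and stood at 535 and 659 in Div8pos. Its lowest mean was in Div8neg, whose range overlapped that of Div5, and its highest libraries were both in Div8pos. Jund, the most constitutively expressed of the family, was at 273 and 314 CPM in Div0, between 181 and 236 in all libraries of Div1 to Div8neg, and at 466 and 525 in Div8pos. Junb, which in many settings opposes Jun, went the other way in Div8pos. It was at 210.2 and 241 CPM in Div0, 178 and 216 in Div1, 161.5 and 200.1 in Div3, 150 and 167 in Div5, 153 and 156.5 in Div8neg, and 114 and 109 in Div8pos. Div8pos lay below all other libraries for Junb and above all others for Jun and Jund. Per cell, Junb was at 18.5 and 20.6 mRNAs in Div8neg and 22.2 and 19.0 in Div8pos, and these ranges overlapped.

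The EGR genes also split. Egr1 was flat over Div0, Div1 and Div3 (38.0 to 46.1 CPM over those 6 libraries), then stood at 44.3 and 57.3 in Div5, 84.3 and 86.5 in Div8neg, and 232 and 223 in Div8pos. Per cell, Egr1 went from 0.962 and 1.2 mRNAs in Div0 to 6.8 and 7.58 in Div8neg and 30.2 and 25.9 in Div8pos. Egr3 ran in the opposite direction. It was at 143 and 127 CPM in Div0, 164.5 and 150.5 in Div1, 142 and 118 in Div3, 69.3 and 60.3 in Div5, 21.3 and 21.4 in Div8neg, and 3.68 and 2.03 in Div8pos. No library of Div5, Div8neg or Div8pos overlapped another of these groups, and the counts behind the last values were 46 and 23. Egr2 had the fewest mRNAs per cell of the 10 genes in every group from Div0 to Div8neg. It was at 6.26 and 7.44 CPM in Div0, 7.37 and 9.2 in Div1, 7.84 and 8.35 in Div3, 5.88 and 8.26 in Div5, 5.86 and 5.43 in Div8neg, and 4.08 and 2.73 in Div8pos. Egr2 overlaps the noncoding gene Gm32255 in RefSeq, and as the sources used here do not say whether counting used strand, reads of the pair cannot be told apart.

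Nr4a1, a receptor-like factor often used as a readout of antigen receptor signalling, had a lower mean CPM in each later group. It was at 52.0 and 58.0 CPM in Div0, 43.2 and 49.2 in Div1, 37.7 and 35.9 in Div3, 20.4 and 22.8 in Div5, 12.1 and 16.1 in Div8neg, and 2.16 and 3.17 in Div8pos. In CPM, no group overlapped the next at any step. Per cell it was nearly level for much of the course, at 1.55 and 2.06 mRNAs in Div0, 1.22 and 1.75 in Div8neg, and 0.349 and 0.456 in Div8pos. Ier2 followed a trough: 48.6 and 51.5 CPM in Div0, 30.6 and 35.3 in Div1, 24.45 and 24.65 in Div3, 22.7 and 23.9 in Div5, 35.7 and 38.5 in Div8neg, and 81.5 and 76.8 in Div8pos. Its Div0 and Div8pos libraries stood above all others and did not overlap each other. Over all 6 groups together, edgeR's quasi-likelihood F-test called 10 of the 10 genes at an adjusted p under 0.05, where 90.9% of all tested genes were called, so that such a call does not set these genes apart.

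**Figure D2:**
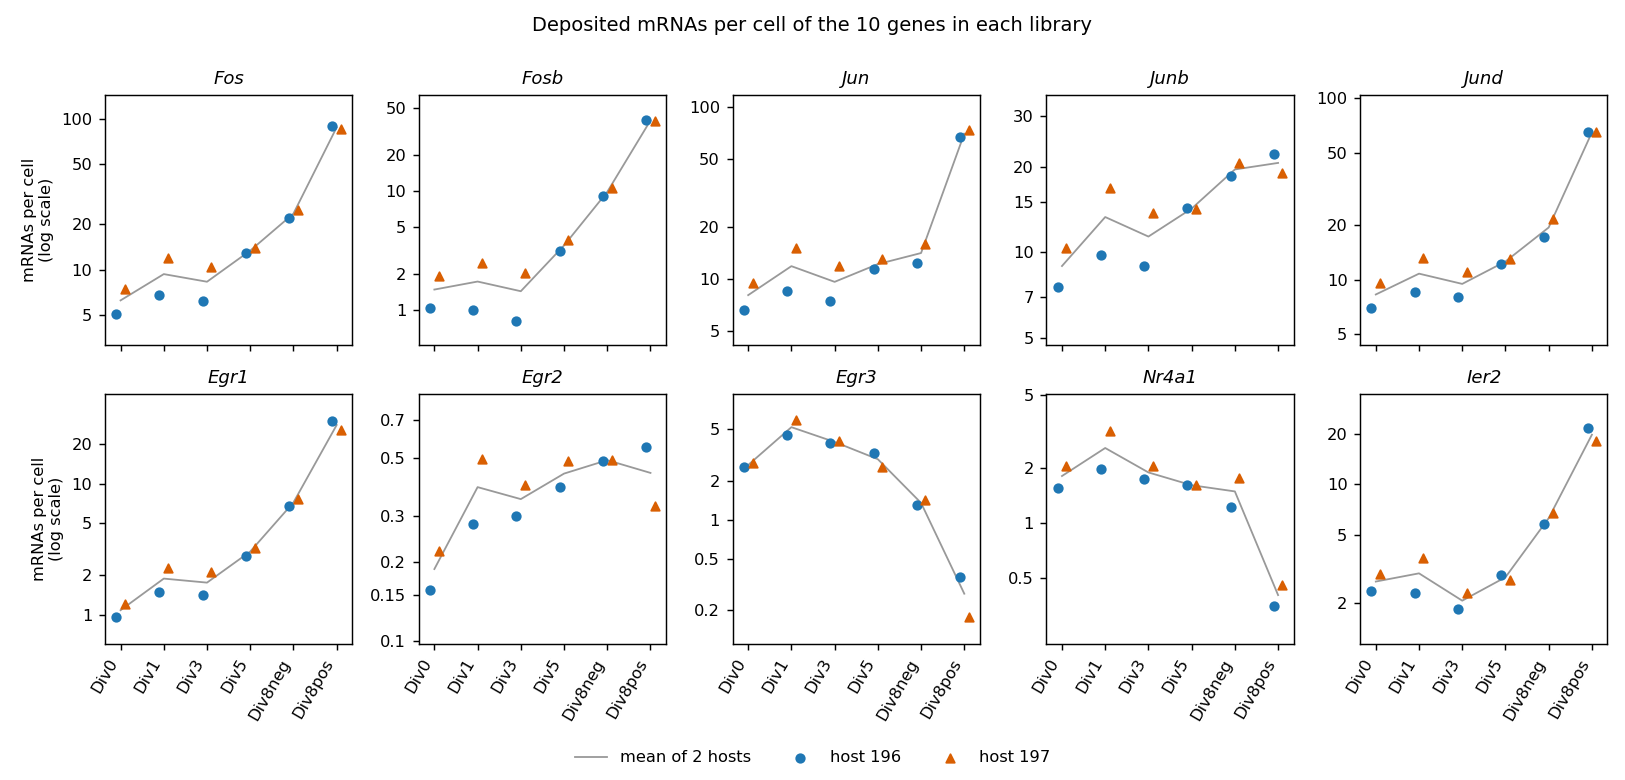
Deposited mRNAs per cell (log scale) of each gene in the 12 libraries, by group. Circles are host 196, triangles host 197 and lines join the means of the 2 hosts. Egr3 and Nr4a1 are lowest in Div8pos, Junb is nearly level between Div8neg and Div8pos, and the 6 genes that were higher in Div8pos on the CPM scale are higher here too.

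Undivided cells were first compared with cells that had divided 8 or more times without gaining CD138. Relative to all genes, Fosb and Egr1 were higher in Div8neg, at 2.12-fold and 2.08-fold of Div0. Egr3 was 6.32-fold lower and Nr4a1 3.9-fold lower. Jun (1.81-fold), Junb (1.46-fold), Jund (1.36-fold) and Ier2 (1.35-fold) were lower too. These are 2 genes higher and 6 lower of 10, against 35.3% of all tested genes higher and 35.7% lower. The log2 fold change was 1.08 (SE 0.25) for Fosb, 1.06 (SE 0.10) for Egr1, -2.66 (SE 0.12) for Egr3 and -1.96 (SE 0.12) for Nr4a1, with edgeR adjusted p of 0.00124, 1.86e-07, 2.99e-11 and 1.11e-09. Only 1.12% of tested genes fell further than Egr3 and 2.88% further than Nr4a1. Fos had a log2 fold change of 0.25 (SE 0.13, adjusted p = 0.102). With the host as a block, Fos was called as well (adjusted p = 0.00237), as it was without the Div0 library of host 197 (adjusted p = 0.029).

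On the per-cell scale, most of these genes rose with the rest of the transcriptome. In Div8neg 8 of the 10 genes were higher and 1 lower than in Div0, against 88.4% of all tested genes higher and 1.65% lower. The median over all genes was 1.41 on the log2 scale, with 0.1 mRNAs added to each value. Fosb (2.71, SE 0.26) and Egr1 (2.63, SE 0.23) lay well above that median and Fos (1.92, SE 0.24) lay above it by less. Jund (1.23), Ier2 (1.22), Junb (1.13), Egr2 (1.05) and Jun (0.82) rose by less than the median gene. Egr3 was the gene called lower (-0.93, SE 0.23, limma adjusted p = 0.000126), from 2.58 and 2.73 mRNAs per cell to 1.29 and 1.41. Nr4a1 was at -0.27 (SE 0.23, adjusted p = 0.254), so its relative fall was not matched by a called fall per cell. The call for Jun was lost without the Div0 library of host 196 (adjusted p = 0.0587), and adding 1 mRNA in place of 0.1 lowered the log2 values of Egr1 to 1.98 and of Egr2 to 0.33.

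**Figure D3:**
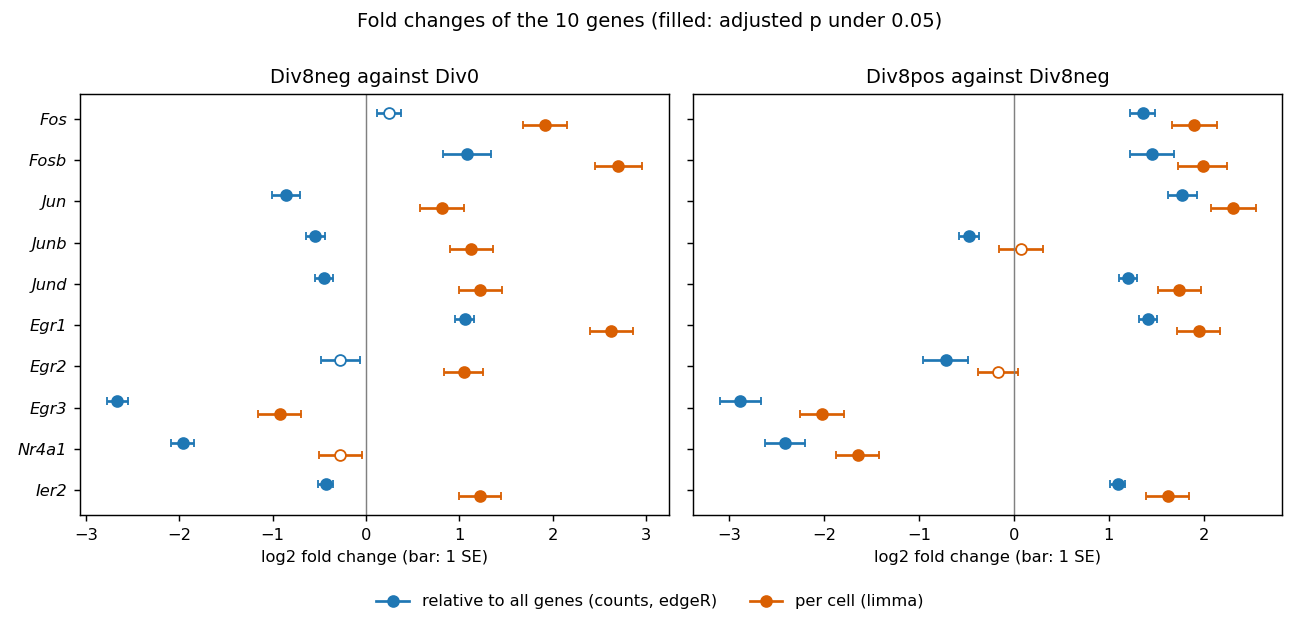
Log2 fold changes of the 10 genes for Div8neg against Div0 (left) and Div8pos against Div8neg (right), with bars of 1 SE. Blue points are relative to all genes and orange points per cell, and filled points have an adjusted p under 0.05. On the left the per-cell points lie to the right of the relative points for every gene, and on the right Egr3 and Nr4a1 lie below 0 on both scales.

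The single steps between sorted divisions were small for most of the 10 genes until the last ones. From Div0 to Div1, Jund (1.29-fold) and Ier2 (1.51-fold) fell relative to all genes, 2 of 10 genes, where 3.91% of tested genes were lower and 5.44% higher. The adjusted p was 0.0222 for Jund and 0.000168 for Ier2 in edgeR. Leaving out 1 library ended the Jund call for host 197 of Div0 (adjusted p = 0.216), host 196 of Div1 (0.137) and host 197 of Div1 (0.0505). With the host as a block, Fosb, Jun and Nr4a1 were called lower as well (adjusted p = 0.0205, 0.00466 and 0.0353) and Egr3 was called higher (0.0128), 6 genes in all. The block also raised the calls over all tested genes, from 1124 to 1713 here and from 411 to 755 from Div1 to Div3. From Div1 to Div3, Ier2 fell again (1.35-fold, adjusted p = 0.011), 1 of 10 genes, where 1.51% were lower and 1.90% higher. That call was lost without host 197 of Div1 (adjusted p = 0.125), without host 197 of Div3 (0.0712), and in a fit of these 2 groups alone (0.0673). With the host as a block, Egr3, Jun and Nr4a1 joined it as lower (adjusted p = 0.00412, 0.013 and 0.0149), whereas without the Div3 library of host 196 only Egr3 did (0.0366).

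From Div3 to Div5, Egr3 fell 2-fold and Nr4a1 1.71-fold relative to all genes, while Fosb rose 1.72-fold. This made 1 gene higher and 2 lower of 10, where 14.2% of tested genes were higher and 12.4% lower. The adjusted p was 1.57e-05 for Egr3, 0.000344 for Nr4a1 and 0.046 for Fosb in edgeR. The Fosb call was lost without the Div3 library of host 196 (0.362) or the Div5 library of host 197 (0.329) and in DESeq2 (0.182), and its log2 value of 0.79 was 1.41 without the Div3 library of host 197. Without that library Egr1 (0.0191) and Fos (0.0378) were called higher too. Egr1 was also called higher without the Div5 library of host 196 (0.00838), and Junb lower without the Div3 library of host 196 (0.0352). With the host as a block, 6 genes were called: Fosb and Egr1 (adjusted p = 0.0256) higher, and Egr3, Nr4a1, Jun (0.0124) and Junb (0.0365) lower. The shares of all tested genes given for this step are from the fit without the block, so they are no measure for that count.

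From Div5 to Div8neg, Fosb (2-fold), Egr1 (1.68-fold) and Ier2 (1.59-fold) rose, and Egr3 (3.04-fold) and Nr4a1 (1.53-fold) fell. That is 3 genes higher and 2 lower of 10, where 26.9% of tested genes were higher and 26.6% lower. The edgeR adjusted p was 0.00344 for Fosb, 1.61e-05 for Egr1, 1.22e-05 for Ier2, 8.48e-08 for Egr3 and 0.00131 for Nr4a1. Fos missed the threshold (1.25-fold, adjusted p = 0.051), and was called with the host as a block (0.000407) and without the Div5 library of host 197 (0.0266). The block also added Jund as higher (0.0307) and Jun as lower (7.16e-05), 8 genes in all, a count that the shares above, from the fit without the block, do not measure. Jun was called lower too without the Div5 library of host 196 (0.0467). The Fosb call was lost without that library (0.0553) and in DESeq2 (0.0521).

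Per cell, 6 of the 10 genes were higher in Div1 than in Div0, led by Egr3 (log2 0.93, SE 0.23), Egr2 (0.73) and Egr1 (0.73), where 77.0% of tested genes were higher and 0.133% lower. The other 3 were Fos (0.54), Junb (0.53) and Jun (0.52), all below the median gene (0.63). That count depended on single libraries: it was 1 when host 196 of Div0 or host 197 of Div1 was left out, and 10 when host 196 of Div1 was left out. Nr4a1 (0.46, limma adjusted p = 0.0597) was called with the host as a block (0.0451) and without the Div0 library of host 197 (0.0393). From Div1 to Div3, limma called 0 of the 10 genes, where 0.208% of tested genes were higher and 0.308% lower. At an unadjusted p under 0.05 limma had 1 gene (Ier2, lower), and edgeR with spike-in library sizes also called 0 at the adjusted threshold.

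From Div3 to Div5, Fosb (1.35, SE 0.26), Egr1 (0.78, SE 0.23) and Fos (0.73, SE 0.24) rose per cell, 3 of 10 genes, where 42.7% of tested genes were higher and 0.416% lower. None of the 3 was called without the Div3 library of host 196, only Fosb was called without either Div5 library, and Jun, Junb and Jund were called too without the Div3 library of host 197. The Fosb value was 0.72 without the Div3 library of host 196 and 1.97 without that of host 197. From Div5 to Div8neg, Fosb (1.47), Egr1 (1.22), Ier2 (1.13), Fos (0.81) and Jund (0.61) rose per cell and Egr3 fell (-1.06), 5 higher and 1 lower of 10, where 42.3% were higher and 3.56% lower. Fos was no longer called without the Div5 library of host 196 (adjusted p = 0.068) or the Div8neg library of host 197 (0.0788). Jund was no longer called without either Div5 library (0.143 for host 196, 0.121 for host 197) or the Div8neg library of host 197 (0.29).

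The comparison of CD138-positive with CD138-negative cells past 8 divisions moved all 10 genes. Jun rose 3.42-fold relative to all genes, Fosb 2.74-fold, Egr1 2.67-fold, Fos 2.56-fold, Jund 2.3-fold and Ier2 2.13-fold. Egr3 fell 7.36-fold, Nr4a1 5.31-fold, Egr2 1.65-fold and Junb 1.39-fold. These 6 higher and 4 lower of 10 compare with 36.6% of tested genes higher and 35.4% lower, so a call alone is common here and the sizes say more. The median of the 10 log2 fold changes was 1.15, against 0.01 over all tested genes. Between 3.88% (Jun) and 9.04% (Ier2) of tested genes rose further than the 6 genes that rose, while 4.87% fell further than Egr3 and 6.62% further than Nr4a1. Junb and Egr2 were in the broad middle, with 30.2% and 24% of tested genes falling further.

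In log2 units the changes were 1.78 (SE 0.15) for Jun, 1.45 (SE 0.23) for Fosb, 1.42 (SE 0.09) for Egr1, 1.36 (SE 0.13) for Fos, -2.88 (SE 0.22) for Egr3 and -2.41 (SE 0.21) for Nr4a1. The edgeR adjusted p was 3.84e-05 for Fosb and between 9e-10 and 1.12e-07 for the other 5. Junb was at -0.47 (SE 0.11, adjusted p = 0.000835). Egr2, with 51 and 31 counts in Div8pos, was at -0.72 (SE 0.24, adjusted p = 0.0131), and its call was lost without the Div8neg library of host 196 (0.0669) or the Div8pos library of host 197 (0.143).

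Per cell, the same 6 genes rose and the directions of Egr3 and Nr4a1 held. Jun rose 4.96-fold, Fosb 3.97-fold, Egr1 3.85-fold, Fos 3.73-fold, Jund 3.35-fold and Ier2 3.08-fold, with 0.1 mRNAs added to each value. Egr3 went from 1.29 and 1.41 mRNAs per cell to 0.361 and 0.177, a 4.06-fold fall on that scale, and Nr4a1 fell 3.13-fold. This made 6 higher and 2 lower of 10, where 52.1% of tested genes were higher and 16.3% lower and the median gene rose by 0.49 on the log2 scale. Junb (0.07, SE 0.23, limma adjusted p = 0.787) and Egr2 (-0.17, SE 0.21, adjusted p = 0.482) were not called, and their signs turned on single libraries (Egr2 at 0.14 without the Div8pos library of host 197, Junb at -0.04 without that of host 196). Adding 1 mRNA in place of 0.1 changed Egr3 from -2.02 to -0.89 and Nr4a1 from -1.65 to -0.82, both still called.

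Within the families, the make-up of the mRNA pool changed with these moves. Egr3 supplied 67.8% ± 2.89 (SD, n = 2) of the EGR mRNAs per cell in Div0, 45.8% ± 7.13 in Div5, 15% ± 0.118 in Div8neg and 0.914% ± 0.346 in Div8pos. Egr1 supplied 27.5% ± 2.11, 47.4% ± 5.89, 79.6% ± 0.479 and 97.6% ± 0.718 in the same groups. The sum of the 3 genes was 3.93 ± 0.318 mRNAs per cell in Div0 and 9.03 ± 0.637 in Div8neg, so the exchange of Egr3 for Egr1 came with a larger pool. All mRNAs per cell grew by a larger factor, from 27360 and 33510 (hosts 196 and 197) in Div0 to 96790 and 103500 in Div8neg. In Div5 the pair was near parity, with 0.849 Egr1 mRNAs per Egr3 mRNA in host 196 and 1.26 in host 197.

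In the JUN family the share of Junb was almost constant until the CD138 split, while Jun and Jund already parted in Div8neg. Junb held between 35.1% and 38.4% in every library from Div0 to Div8neg and 14.4% and 12.1% in Div8pos. Jun held 30.1% to 33.8% in the 8 libraries of Div0 to Div5, 26.6% ± 1.15 in Div8neg and 45.1% ± 2.24 in Div8pos. Jund held 29% to 33%, 36.5% ± 0.988 and 41.6% ± 0.576. The ratio of Jun to Jund mRNAs was 0.929 to 1.17 through Div5 and 0.722 and 0.739 in Div8neg. The ratio of Jun to Junb mRNAs was 0.672 and 0.776 in Div8neg and 3.02 and 3.88 in Div8pos. The ratio of Fosb to Fos changed earlier: it was 0.13 to 0.276 over the 8 libraries of Div0 to Div5, 0.409 and 0.423 in Div8neg and 0.443 and 0.446 in Div8pos. The 5 AP-1 genes together came to 33.1 ± 8.19 mRNAs per cell in Div0, 86.5 ± 10.3 in Div8neg and 283 ± 1.12 in Div8pos. With 2 libraries against 2 an exact permutation test cannot go below p = 0.333, so these shares and ratios are given as values without a test.

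**Figure D4:**
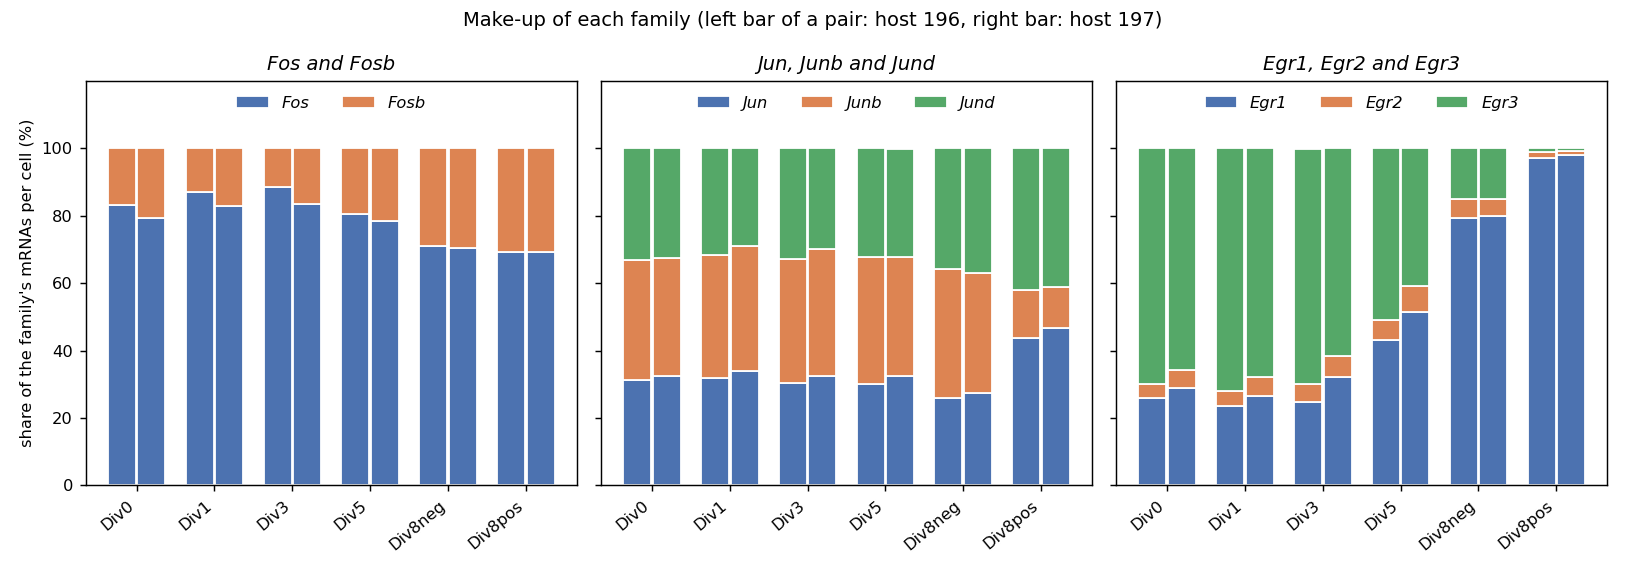
Share (%) of each gene in the mRNAs per cell of its family, for Fos and Fosb (left), the 3 JUN genes (middle) and the 3 EGR genes (right), by group. In each pair the left bar is host 196 and the right bar host 197. The EGR bars pass from mostly Egr3 in Div0 to 97.6% Egr1 in Div8pos, and the Junb part of the JUN bars is narrow in Div8pos only.

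Compared directly, Div8pos and Div0 libraries of the same host differed most for Egr3, which was 38.9-fold lower in host 196 and 62.6-fold lower in host 197 on the CPM scale. Nr4a1 was 24.1-fold and 18.3-fold lower. Fosb (7.13-fold and 4.92-fold) and Egr1 (5.79-fold and 5.31-fold) were higher, and Jun was 1.87-fold and 1.91-fold higher. Per cell, Egr1 was 31.4-fold and 21.5-fold higher, whereas Egr3 was 7.16-fold and 15.5-fold lower and Nr4a1 4.44-fold and 4.51-fold lower. By length-corrected level among the 12026 tested genes, Fos stood at rank 889 in Div0 and 302 in Div8pos, and Egr3 at rank 2407 and 10033. No fit was made of this pair, so these are values of 2 hosts.

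For these 10 genes, the hosts differed in a like way in most groups. Host 197 was above host 196 in CPM for 9 of the 10 genes in Div0, Div1, Div5 and Div8neg, for 8 in Div3 and for 5 in Div8pos. The share of all tested genes that were higher in host 197 was not counted, so these counts do not set the 10 genes apart. The widest gap was for Fosb, 1.58-fold in Div0, 1.73-fold in Div1 and 2.06-fold in Div3, and narrowed to 1.08-fold in Div8neg. Egr3 ran the other way, with a ratio of 197 to 196 between 0.828 and 0.914 from Div0 to Div5. The granulocyte markers found (4 of 5 listed, S100a8 and S100a9 above all, with Elane at 0 in 10 libraries) summed to 6.44 CPM in host 196 and 28.9 in host 197 in Div0, 4.94 and 47.7 in Div1, 4.88 and 15 in Div3, 3.14 and 18.5 in Div5, 6.14 and 10.8 in Div8neg, and 1.74 and 3.9 in Div8pos. The 5 erythroid markers found of 7 were higher in host 196 in all groups (66.3 and 19.0 CPM in Div0, 4.23 and 0.933 in Div8pos). Their part in the host differences was not tested.

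The summed markers of other cell types were lower in Div8pos than in Div8neg, though not every single marker was. From Div8neg to Div8pos, 6 of 7 listed myeloid markers were found and their sum went from 148 and 185 CPM to 15 and 16.5. The 5 dendritic markers went from 206 and 189 to 23.1 and 19.6, the 6 T cell markers found from 5.58 and 5.07 to 1.44 and 1.53, the 5 NK markers from 7.91 and 6.95 to 1.51 and 3.82, and the 4 platelet markers from 9.39 and 14.3 to 2.42 and 2.63. The T cell sum was mostly Cd5 (54 to 5 counts in the larger library of each group) and the NK sum mostly Prf1 (102 to 40). On the same measure the T cell marker Cd4 (10 to 15) and the dendritic marker Xcr1 (10 to 14) went the other way. From Div0 to Div8neg, in contrast, the myeloid sum went from 42.4 and 45.7 to 148 and 185, mostly through Itgam. Taking the larger count of the 2 libraries of a group, Itgam had 162 counts in Div0 and 1735 in Div8neg. On that measure the macrophage gene Cd68 had 136 and 445 counts, Csf1r 117 and 98, and Lyz2 119 and 50. Of the 6 myeloid markers tested, 2 were called higher and 2 lower. The dendritic sum was 93.4 and 104 in Div0 and highest in Div3 (465 and 456), mostly Flt3. The part of these cell types in the changes of the 10 genes was not tested.

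Genes of the same pathways moved in both directions between Div8neg and Div8pos, as did all tested genes (36.6% higher and 35.4% lower relative to all genes, 52.1% and 16.3% per cell), and the counts of the lists below are to be read against those shares. Of 18 tested AP-1, ATF, BATF and MAF relatives, 8 were higher and 7 lower, near the shares over all genes, with a median log2 fold change of -0.17 against 0.01 over all tested genes. Per cell, 8 were higher and 4 lower. Crem, a cyclic AMP responsive factor (3.64-fold), Atf5 (3.2-fold) and Atf4, a factor of the integrated stress response (1.88-fold), were higher. Jdp2, a repressor that pairs with JUN (2.53-fold), Creb1, which binds the cyclic AMP response element (1.9-fold), and Batf, an AP-1 factor of lymphocytes (1.79-fold), were lower, the last 2 without a call per cell (limma adjusted p = 0.139 for Creb1 and 0.267 for Batf). Of 7 tested EGR and NR4A relatives and corepressors, 1 was higher and 6 lower (median -0.75), and per cell 1 was higher and 2 lower. The number higher was 2 without either Div8neg library or without the Div8pos library of host 197. The EGR corepressors parted, with Nab1 1.51-fold higher (88 ± 2.18 to 133 ± 3.9 CPM, SD, n = 2) and Nab2 1.68-fold lower (18.3 ± 3.81 to 10.8 ± 1.63). Per cell, Nab2 was not called (limma adjusted p = 0.468). Rxra, a dimer partner of NR4A1, was 4.26-fold lower.

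Of 37 other rapid response genes, 14 were higher and 13 lower (median 0.18), near the 36.6% and 35.4% of all tested genes, and per cell 21 were higher and 9 lower. Trib1, a pseudokinase gene (11.4 ± 1.46 to 135 ± 0.167 CPM, 11.9-fold), Dusp4, a phosphatase of MAP kinases (6.17-fold), and the kinase gene Pim1 (2.65-fold) rose most among those with at least 5 CPM. Btg1, an antiproliferative gene (206 ± 1.38 to 15.6 ± 0.176 CPM, 13.2-fold), Cd83, an activation marker (11.8-fold), and Gadd45g (7.26-fold) fell most. The relative direction of Div8neg against Div0 was more uniform in that list, with 4 higher and 24 lower of 37 against 35.3% and 35.7% of all tested genes. Among the lower were Dusp6 (3.89-fold), Zfp36 (3.72-fold) and Btg1 (3.27-fold), none with a call per cell (limma adjusted p = 0.248, 0.377 and 0.912). Per cell, that comparison had 29 of these 37 genes higher, where 88.4% of all tested genes were. Among these 4, Rgs2 was no longer called without the Div0 library of host 196 (adjusted p = 0.383), the Div8neg library of host 196 (0.08) or of host 197 (0.155), and DESeq2 called 2 of the list higher.

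The kinase route to the serum response element, through RAS, ERK and ELK factors, had 8 genes higher and 10 lower of 20 (median -0.48) where 36.6% and 35.4% of all tested genes were, and per cell 8 higher and 4 lower (median 0.06). Elk4 (1.79-fold) and Hras (1.76-fold) were higher, and Elk3 (4.07-fold), Mkl1, a coactivator of serum response factor (3.16-fold), and Elk1 (2.17-fold) were lower. Of 14 stress kinases that act upstream of Jun, 4 were higher, among them Mapk8, the gene of the JUN kinase JNK1 (1.99-fold), and 7 were lower, led by Mapk11 (6.35-fold) and Map3k8 (2.32-fold). Per cell, 5 of these 14 were higher and 2 lower, where 52.1% and 16.3% of all tested genes were. Their median log2 fold change per cell was 0.23, below the 0.49 of all tested genes. Heat shock genes were the exception: 11 of 11 tested genes were higher in Div8pos on both scales, where 36.6% of all tested genes were higher relative to all genes and 52.1% per cell. Their median log2 fold change was 0.63 relative to all genes and 1.17 per cell, where the median of all tested genes was 0.49. Among them were Bag3 (3.55-fold), Hspa1b (2.79-fold) and Hspa1a (2.66-fold) relative to all genes, the last pair being near-identical copies whose reads may be split. The 12 listed heat shock genes summed to 9310 and 9680 CPM in Div8neg and 12800 and 13500 in Div8pos. The list includes Hspa5, which stood at 1480 ± 231 CPM (SD, n = 2) in Div8neg. From Div0 to Div8neg, 8 were higher and 2 lower, Hspa1b (2.25-fold) and Hspa1a (1.91-fold), relative to all genes, where 35.3% were higher and 35.7% lower. Per cell all 11 were higher, these 2 included, where 88.4% were. The part of heat shock or handling in the rise of Fos, Jun and Egr1 was not tested.

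**Figure D5:**
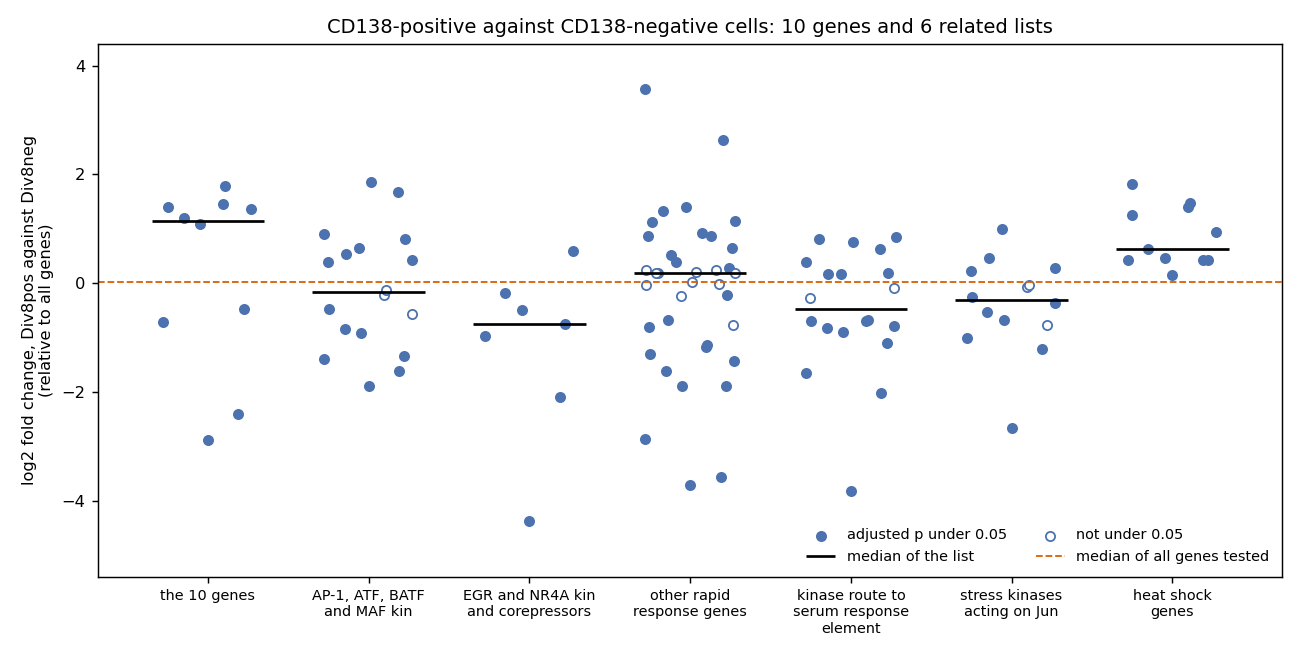
Log2 fold changes relative to all genes in Div8pos against Div8neg, for the 10 genes and for tested members of 6 related lists. Each point is a gene, filled where the adjusted p was under 0.05, black lines are list medians and the dashed line is the median of all tested genes. The 10 genes and the lists of their relatives spread to both sides of 0, and all 11 heat shock genes lie above it.

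The 10 genes fell into sets by their course over the 12 libraries, described here by Pearson's r of log2 CPM. Fos and Egr1 had r = 0.963, Fos and Fosb 0.954, Jun and Jund 0.949, and Jund and Ier2 0.928. Egr3 and Nr4a1 had r = 0.972, and Junb went with Nr4a1 (0.929) rather than with Jun (-0.351). Egr1 and Egr3 were nearly mirror images (-0.987). All of these points share their libraries and the steps between groups, so the values describe courses and carry no test.

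Among 9601 genes with a mean of at least 5 CPM, those with a course most like Fos were Znhit3 (r = 0.993), Fndc3b, Tram2, Mief1 and Smg8. The genes most like Egr1 were Mrpl13, a mitochondrial ribosomal protein gene (r = 0.998), Lrrc59, Slc35b1, Nploc4 and Agpat5. Lrrc59 went from 120 CPM in Div0 to 314 in Div8neg and 1190 in Div8pos, as a mean of 2 hosts. The genes most like Nr4a1 were Dstyk (r = 0.995), Tmub1, Tdrd7, Dnajb5 and Csnk1g2, and those most like Junb were Psme1, a proteasome activator gene (r = 0.966), Rela, which encodes an NF-kB subunit, Cmpk2, Tgif1 and Tob2. None of these 20 genes was an immediate early gene of the lists above.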

How the data were processed

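RNA was measured in 12 libraries, 2 hosts in each of 6 groups. Per the labels' protocols, ERCC spike-in RNA was added before extraction from 40000 cells, and libraries were stranded, 50 bp paired-end. Counts, as deposited, are reads that fell on the exons of mm9 gene models (UCSC KnownGenes), which the deposited readme states. The deposited mRNAs per cell are a signal that the authors made from FPKM with 1 spike-in factor per library, as checked from the values. Per the submitters' processing notes, Picard, R 3.2.2 and mm9 were used. No source used here names the aligner or the counter. Rows without a symbol (90, with 0.0498 to 0.0943% of counts) were left out.

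Counts were tested in R 4.3.3 with edgeR 4.0.16 (TMM factors, filterByExpr, glmQLFit on all 12 libraries with group means, glmQLFTest), and mRNAs per cell of the same 12026 genes with limma 3.58.1 (trend, log2 of the value plus 0.1). A call is a Benjamini-Hochberg adjusted p under 0.05 over all genes tested in that comparison. DESeq2 1.42.0 and other alternatives are in the closing section. The scripts were tested on simulated data. Libraries of a group differed beyond sampling noise (chi-square over degrees of freedom 2.44 to 4.28). Same-numbered libraries came from the same host per the labels, which makes them paired. Their deviations from group means correlated with a median r of 0.121 (0.0226 to 0.271 over 15 pairs of groups), and fits with the host as a block are given where they change a call. All 10 genes are named. From each related list, up to 3 called genes per direction with the largest fold change and at least 5 CPM could be named. An item that this rule takes is not reported here. The genes and lists were chosen with earlier results of these data known.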

Additional observations from a re-analysis of the deposited data

How the results depend on the processing

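The counts of calls between neighbouring early divisions depended most on the processing, while 175 of 180 settings of the 10 genes on both scales kept direction and side of the threshold in Div8pos against Div8neg, and as many in Div8neg against Div0. Over all 1080 settings of the 10 genes, 946 did so, 49 lost and 49 gained a call, and 36 turned in sign, all of them by leaving out 1 library. With the replicate block (host), the genes called relative to all genes from Div0 to Div1 went from 1124 to 1713 and the 10 genes from 2 to 6. From Div1 to Div3 these were 411 to 755 and 1 to 4, from Div3 to Div5 the 10 genes went from 3 to 6, and from Div5 to Div8neg from 5 to 8. For the steps from Div3 on, the count over all genes with the block is not given, so those rises do not set the 10 genes apart. Per cell, the block gave 117 in place of 62 genes from Div1 to Div3. Beyond the calls named in the report, the block changed no other call of the 10 genes. With no filter on low counts, the relative counts of the 10 genes were 6 (Div0 to Div1), 4 (Div1 to Div3) and 7 (Div3 to Div5), and 738 genes in all were called from Div1 to Div3. Per cell without that filter they were 2 (Div0 to Div1), 0 in place of 3 (Div3 to Div5) and 3 in place of 6 (Div5 to Div8neg), and all genes called were 0 (Div1 to Div3) and 228 in place of 5190 (Div3 to Div5). A pseudocount of 1 gave 3 of the 10 genes in place of 6 from Div0 to Div1 and 28 genes in all from Div1 to Div3. A fit of 2 groups alone gave 178 genes and 0 of the 10 genes from Div1 to Div3. The cause of these shifts was not tested.

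Leaving out each library in turn gave ranges for the counts. Per cell they were 838 to 10259 genes and 1 to 10 of the 10 genes (Div0 to Div1), 47 to 95 genes (Div1 to Div3), 304 to 5651 genes and 0 to 6 of the 10 (Div3 to Div5), and 2405 to 3875 genes (Div5 to Div8neg). Relative to all genes they were 623 to 791 genes and 1 to 2 of the 10 (Div0 to Div1), 138 to 306 genes and 0 to 2 of the 10 (Div1 to Div3), and 1197 to 2889 genes and 2 to 5 of the 10 (Div3 to Div5). Where a sign turned, the gene was not called either before or after in any of those settings. The log2 ranges per cell were, from Div0 to Div1, -0.456 to 0.754 for Fosb and -0.217 to 0.466 for Ier2. From Div1 to Div3 they were -0.387 to 0.2 for Egr1, -0.415 to 0.231 for Egr2, -0.561 to 0.248 for Fos, -0.885 to 0.361 for Fosb, -0.695 to 0.133 for Jun, -0.594 to 0.181 for Junb and -0.478 to 0.138 for Jund. Later they were -0.375 to 0.12 for Nr4a1 (Div5 to Div8neg), and -0.468 to 0.138 for Egr2 and -0.039 to 0.187 for Junb (Div8neg to Div8pos). Relative to all genes they were -0.004 to 0.105 for Egr1 (Div0 to Div1), then from Div1 to Div3 -0.16 to 0.111 for Egr1, -0.183 to 0.127 for Egr2, -0.306 to 0.122 for Fos, -0.794 to 0.293 for Fosb and -0.29 to 0.015 for Junb. From Div3 to Div5 they were -0.466 to 0.022 for Egr2, -0.025 to 0.412 for Fos and -0.359 to 0.03 for Jun, and from Div5 to Div8neg -0.11 to 0.045 for Junb. A group left with 1 library was assumed to vary like the others. Low counts limit Egr2, Egr3 and Nr4a1 in Div8pos (23 to 51 counts).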
